A study of Mus musculus with 55 samples.

Results

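The 10 genes described here, Fkbp5, Sgk1, Tsc22d3, Zbtb16, Plin4, Depp1, Sult1a1, Cdkn1a, Mt1 and Mt2, are known targets of glucocorticoid receptors, of FoxO transcription factors or of both, and were taken by their gene symbols from a dorsal hippocampal RNA-seq table of 55487 counted genes. All 10 were among the 16168 genes tested. The libraries came from 55 mice on a C57/BL6j background, 1 library per mouse, with 27 wild-type (WT) mice and 28 homozygous Cnih3 knock-out (KO) mice. The KO mice lack exon 4 of Cnih3, which encodes an auxiliary subunit of AMPA-type glutamate receptors, and the deletion shifts the reading frame in every cell of the animal. Females were staged by vaginal cytology at collection, giving 4 WT and 5 KO mice in metestrus, 6 and 6 in diestrus, 5 and 4 in proestrus and 7 and 6 in estrus, beside 5 WT and 7 KO males.

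Glucocorticoids enter the cell and bind the glucocorticoid receptor, which is held ready by Hsp90 and its cochaperones, moves to the nucleus and binds palindromic DNA elements near its target genes. FoxO factors are kept out of the nucleus when they are phosphorylated by the kinases Akt and Sgk1, and they drive stress and growth arrest genes when that phosphorylation falls. The pathways meet at several of these genes: Sgk1 is itself induced by the receptor, and Tsc22d3 and Cdkn1a respond to both. The hippocampus is rich in glucocorticoid and mineralocorticoid receptors, and Fkbp5, Sgk1 and Tsc22d3 are common readouts of hormone exposure there.

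Several features of the groups bear on the values below. Ages ran from 10.86 to 23.71 weeks, and 17 mice were under 14 weeks, among them 4 of 6 KO diestrus and 3 of 4 KO proestrus mice but no KO male. KO diestrus mice had a median age of 12.43 weeks and KO males of 18.29 weeks. All KO mice and 11 of 27 WT mice came from Cnih3 mutant lines, while the other WT mice had parents without the mutation. Total counts ranged from 25881295 to 63547098 per library. The deposited gene counts were not split by exon, so Cnih3 counts do not check the deletion: Cnih3 was at 21.6 to 62.5 CPM (counts scaled to a fixed library total) in WT and at 21.6 to 47.8 CPM in KO mice. Markers of the tissue were present, since the 6 CA1 pyramidal cell genes summed to 277 to 420 CPM and the 7 dentate granule cell genes to 316 to 475 CPM in WT males. Pituitary, choroid plexus and blood transcripts were also found, with 1 of the 7 pituitary genes at 0 in all libraries, and choroid plexus markers ran from 27.4 to 2062 CPM within the KO males alone. In bulk tissue, fewer cells of a type and less RNA per cell cannot be told apart.

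Promoter sequences are shown for the 4 genes that moved together most closely as 2 pairs from mouse to mouse, Sgk1 with Tsc22d3 and Mt1 with Mt2. They are the 250 bases before a transcription start in RefSeq (GRCm38.p6), read 5′ to 3′ on the gene's strand. Capitals mark AGAACA on either strand (a single arm of the palindrome bound by the glucocorticoid receptor) and, in Sgk1, the whole palindrome with its spacer, and in Mt1 and Mt2 they mark TGCACNC or TGCGCNC on either strand (the core of metal response elements, bound by the zinc sensor Mtf1). Sgk1 is shown at chr10:21993640-21993889, forward strand, Tsc22d3 at chrX:140600523-140600772, reverse strand, Mt1 at chr8:94178839-94179088 and Mt2 at chr8:94172368-94172617, both forward strand. Of 6 Sgk1 and 3 Tsc22d3 starts, the one whose window held the most matches is shown.
Sgk1: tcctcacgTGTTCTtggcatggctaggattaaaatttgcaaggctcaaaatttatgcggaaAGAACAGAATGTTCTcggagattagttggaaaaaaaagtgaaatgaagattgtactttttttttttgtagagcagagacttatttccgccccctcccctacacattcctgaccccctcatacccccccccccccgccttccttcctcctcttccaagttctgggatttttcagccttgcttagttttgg
Tsc22d3: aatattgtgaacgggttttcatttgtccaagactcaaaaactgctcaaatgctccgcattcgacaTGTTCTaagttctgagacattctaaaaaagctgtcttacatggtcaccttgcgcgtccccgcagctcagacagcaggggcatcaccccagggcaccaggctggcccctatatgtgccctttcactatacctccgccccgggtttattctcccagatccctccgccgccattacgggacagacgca
Mt1: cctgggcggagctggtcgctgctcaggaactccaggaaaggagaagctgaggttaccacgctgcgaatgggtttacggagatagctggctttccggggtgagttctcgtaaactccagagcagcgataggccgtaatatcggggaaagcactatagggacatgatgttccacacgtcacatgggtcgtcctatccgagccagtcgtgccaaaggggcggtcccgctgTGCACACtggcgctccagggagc
Mt2: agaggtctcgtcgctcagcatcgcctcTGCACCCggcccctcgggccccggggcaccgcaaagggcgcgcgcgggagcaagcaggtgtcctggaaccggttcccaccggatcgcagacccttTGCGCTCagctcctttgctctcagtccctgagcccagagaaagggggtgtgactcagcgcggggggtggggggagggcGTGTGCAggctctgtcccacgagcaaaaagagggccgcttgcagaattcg
The Sgk1 window holds AGAACA and TGTTCT 3 bases apart, 189 to 175 bases before the start, with another single arm 242 to 237 bases before it. That full palindrome occurred in 3 of 32851 windows of this length in the mouse table (0.00913%), whereas the single arm occurred in 16.1%. Tsc22d3 has 1 arm, 185 to 180 bases before the start. Mt1 has TGCACNC 23 to 17 bases before its start. Mt2 has TGCACNC 223 to 217 and 50 to 44 bases and TGCGCNC 128 to 122 bases before its start, and these cores occurred in 10.4% and 12.5% of all windows. Of 9 genes with 17 starts in the table, Sult1a1 had 2 such arms and 2 further Sgk1 starts had 1 each, while the other 3 Sgk1 starts and the other 2 Tsc22d3 starts had none. GTAAACA, a FoxO binding sequence found in 3.17% of windows, was in none of the 17. Zbtb16 had no entry. A match only describes these letters.

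The 10 genes differed widely in level, from Mt1 at 548 to 1748 CPM per mouse down to Depp1 at 0.0513 to 4.29 CPM. CPM is not corrected for gene length, so these levels rank reads and not transcripts. In a test across the 10 groups (limma moderated F test, Benjamini-Hochberg false discovery rate, FDR, under 0.05), 7 of 10 passed, beside 55.3% of all genes tested. Tsc22d3 (FDR = 0.000169), Depp1 (0.00441), Sgk1 (0.00522), Sult1a1 (0.0108), Mt1 (0.0133), Plin4 (0.0381) and Fkbp5 (0.0462) passed, and Cdkn1a (0.0743), Zbtb16 (0.0903) and Mt2 (0.146) did not. With equal library weights and in edgeR 0 of 10 passed, and in DESeq2 1. From mouse to mouse inside a group, the genes' median SD was 0.37 on the log2 scale, against 0.27 over all genes tested. When the 10 groups were put in order of their means, neighbouring groups lay closer than their pooled SD at all 9 steps for each gene except Zbtb16, where 8 of 9 did. Steps between 10 sorted means tend to be small, so this does not bear on the end groups. For Sgk1 the lowest and highest groups did not overlap (134 to 154 against 168 to 289 CPM), nor for Plin4 (0.392 to 1.43 against 1.79 to 2.66 CPM).

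**Figure D1:**
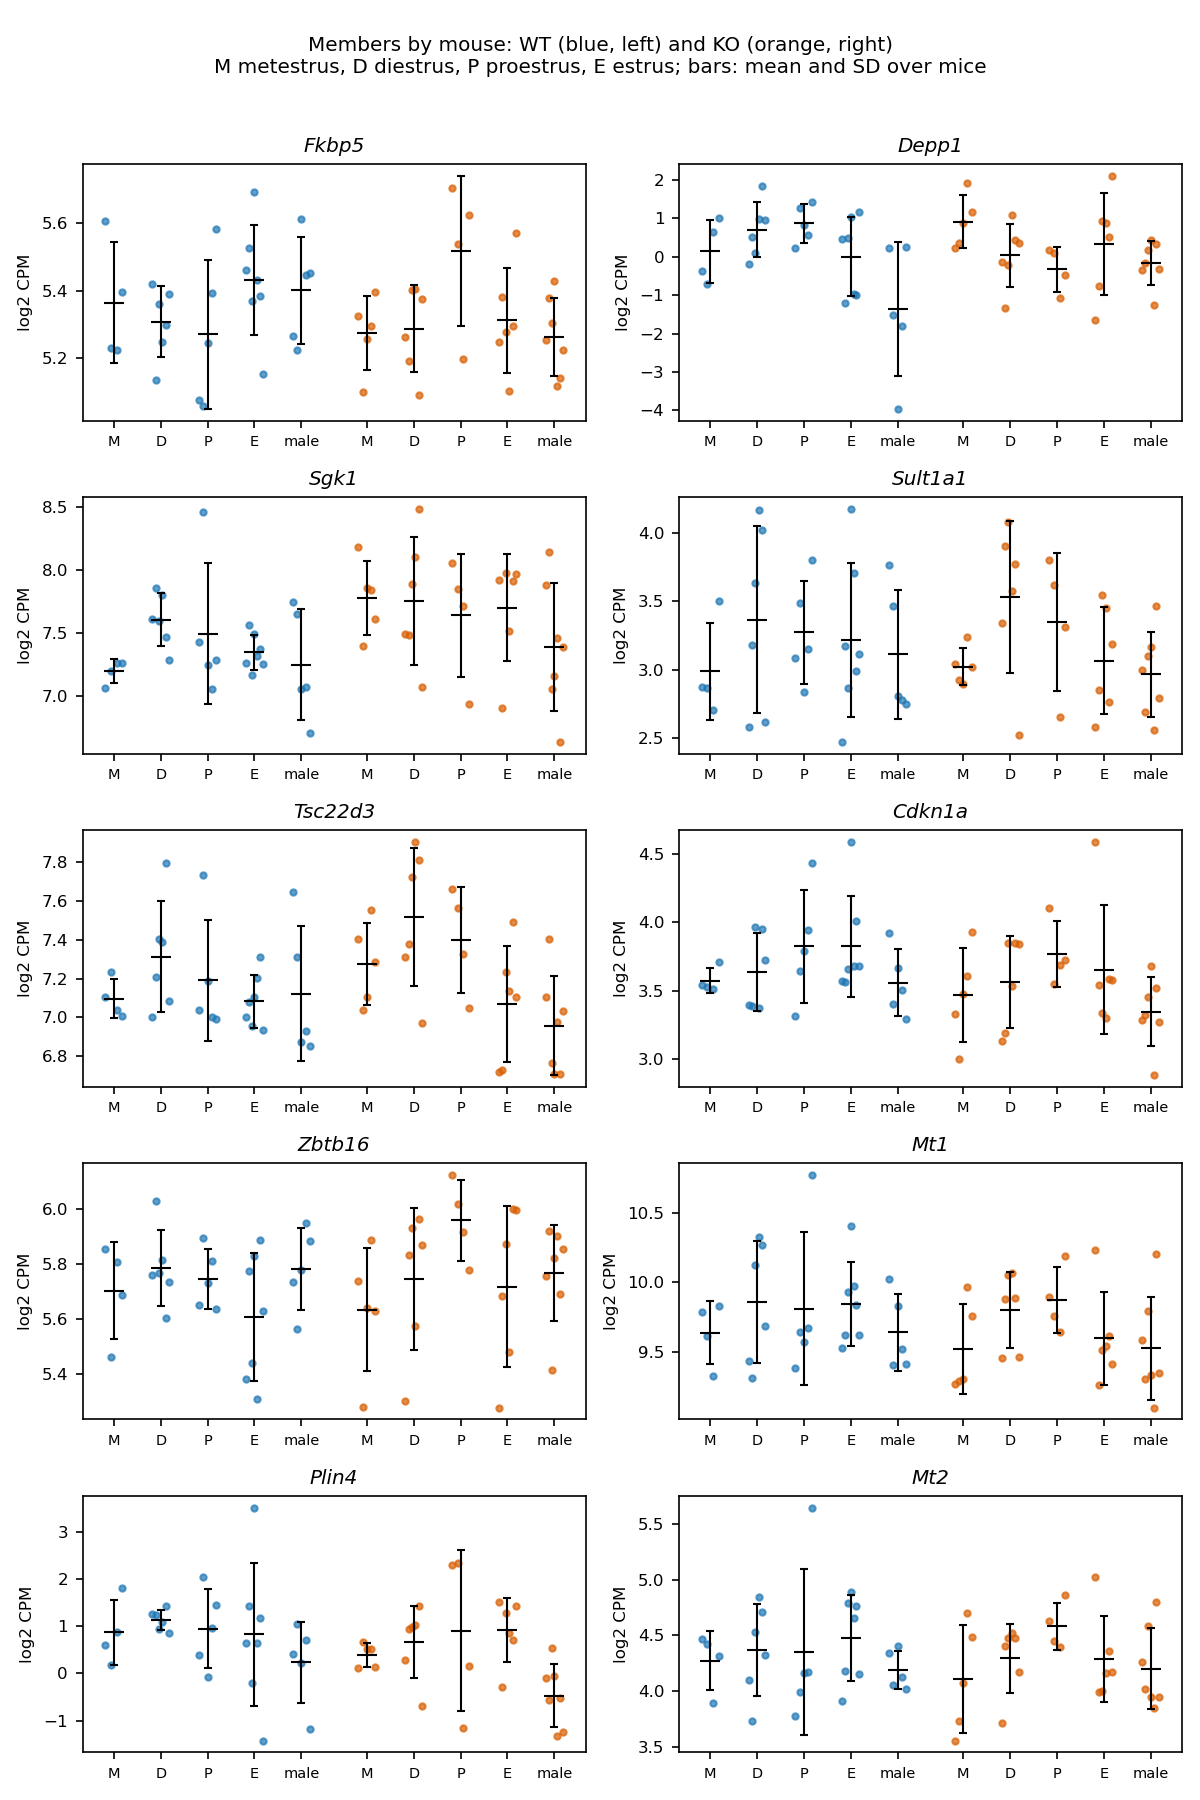
Log2 CPM of the 10 genes in each of 55 mice (points), by stage or sex on the horizontal axis, WT in blue and KO in orange, with the mean and SD of each group as bars. Points of different groups overlap in every panel, but those of the highest and lowest groups do not for Sgk1 and Plin4. KO diestrus has the highest mean for Tsc22d3 and Sult1a1, and KO males are low for Plin4.

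Fkbp5 (ENSMUSG00000024222, chr17:28399094-28517527, reverse strand, GRCm38) encodes a cochaperone that lowers the receptor's affinity for hormone and is induced by it in turn. Its level was the steadiest of the set, at 33.3 to 52.2 CPM over all 55 mice. KO proestrus was the highest group (36.7, 46.5, 49.4 and 52.2 CPM) and KO males the lowest (34.7 to 43.1 CPM, median 38.1). Of the 25 comparisons of one group with another in the design, 1 passed, with Fkbp5 lower in KO diestrus than in KO proestrus.

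Sgk1 (ENSMUSG00000019970, chr10:21882184-21999903, forward strand) encodes a kinase that phosphorylates FoxO factors and regulates ion channels. Its range was 99.5 to 357 CPM. The 4 WT metestrus mice, at 134, 147, 154 and 154 CPM, formed the lowest group, and the 5 KO metestrus mice, at 168, 196, 229, 231 and 289 CPM, the highest. No group comparison of Sgk1 passed in the limma fit, of 25 made. WT proestrus held 1 mouse at 352 CPM beside 133 to 173 CPM in the other 4.

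Tsc22d3 (ENSMUSG00000031431, chrX:140539528-140600659, reverse strand) encodes GILZ, which carries part of the anti-inflammatory action of glucocorticoids. The 6 KO diestrus mice were at 125 to 240 CPM (median 189) and the 7 KO males at 104 to 169 CPM (median 126), the highest and lowest groups. Although the ranges overlapped, 3 of the 6 KO diestrus mice, at 211, 225 and 240 CPM, lay above every KO male. Those 3 mice were 11, 11 and 10.86 weeks old, while KO males were 18.29 weeks or older. The other KO diestrus mice, at 125, 159 and 166 CPM and 23.43, 16.29 and 13.86 weeks, lay within the KO male range. The WT proestrus mouse with the high Sgk1 value also led its group for Tsc22d3, at 213 CPM against 127 to 146 CPM.

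Zbtb16 (ENSMUSG00000066687, chr9:48654297-48836222, reverse strand) encodes the transcription factor PLZF, a strong glucocorticoid target in many tissues. It lay between 38.8 and 69.7 CPM. KO proestrus mice, at 54.8, 60.3, 64.7 and 69.7 CPM, were the highest group and WT estrus the lowest (39.6 to 59.2 CPM, median 49.4). None of the 25 group comparisons of Zbtb16 passed in the limma fit.

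Plin4 (ENSMUSG00000002831, chr17:56100591-56109803, reverse strand) encodes a perilipin that coats lipid droplets. It was scarce, at 18 to 563 counts per library. KO males were the lowest group, at 0.392 to 1.43 CPM (median 0.685), and WT diestrus the highest by mean log2 level, at 1.79 to 2.66 CPM (median 2.24). KO proestrus mice split widely, at 0.439, 1.10, 4.87 and 5.03 CPM, and 1 WT estrus mouse reached 11.3 CPM where the other 6 stayed between 0.362 and 2.66 CPM. Depp1 (ENSMUSG00000048489, chr6:116650609-116652794, forward strand), a FoxO target first described as induced by progesterone, was scarcer still. WT males gave 57, 18, 2, 14 and 55 counts (1.16, 0.340, 0.0513, 0.275 and 1.18 CPM), the lowest group, while KO metestrus mice were the highest at 1.16, 1.26, 1.84, 2.22 and 3.80 CPM.

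Sult1a1 (ENSMUSG00000030711, chr7:126672865-126676432, reverse strand), a sulfotransferase of phenols and catecholamines, was at 5.74 to 16.9 CPM in KO diestrus (median 12.8), its highest group, and at 5.89 to 11.1 CPM in KO males (median 7.97), its lowest. Cdkn1a (ENSMUSG00000023067, chr17:29090976-29100727, forward strand) encodes the cell cycle inhibitor p21, induced by p53, FoxO factors and glucocorticoids. It ran from 7.38 to 24.1 CPM, with WT proestrus highest (9.95, 12.5, 13.8, 15.4 and 21.6 CPM) and KO males lowest (7.38 to 12.8 CPM, median 10.0). Groups overlapped for both genes.

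Mt1 (ENSMUSG00000031765, chr8:94179082-94180327, forward strand) and Mt2 (ENSMUSG00000031762, chr8:94172664-94173568, forward strand) encode metallothioneins, small proteins that bind zinc and copper and are induced by metals and by glucocorticoids. They lie 5513 bases apart. Mt1 was highest in KO proestrus (799, 864, 950 and 1169 CPM) and lowest in KO metestrus (618, 626, 631, 866 and 1000 CPM). KO proestrus also led for Mt2 (21.1, 21.8, 24.7 and 29.1 CPM), and KO metestrus was again lowest (11.7, 13.2, 16.8, 22.4 and 26.0 CPM). The genes are near copies and the gene counts kept reads with a single alignment, so their levels are uncertain. Reads lost or split in this way were not measured. The deposited estimated transcript counts of Mt2 summed to 1.85 times its gene count (1.35 to 2.33 between libraries), where the median gene stood at 0.394 and only 1.06% of 14138 genes reached the ratio of Mt2. Mt1 stood at 0.326.

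In WT mice, females and males did not differ for any of the 10 genes in the limma fit (0 called, beside 0.0309% of all genes), and edgeR and DESeq2 also called 0. Depp1, which the paper had also named for this comparison, was the one gene with an unadjusted p under 0.05. Its log2 fold change, taken over the mean of the 4 stages, was 2.32 ± 0.75 (SE), a 4.98-fold difference with unadjusted p = 0.00305 and FDR = 1.00, and it ranked 7th in size among the genes tested. The fit weights libraries by quality, and the plain group means differed by less (0.43 against -1.36 log2 CPM). Leaving out 1 mouse moved the estimate from 1.57 (without WT male 3, the one with 2 counts) to 3.12 (without WT male 5), with the smallest FDR at 0.0852. Plin4 stood at 0.51 ± 0.58 and the remaining 8 genes between -0.12 (Fkbp5) and 0.22 (Sgk1).

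In KO mice all 10 genes had higher fitted levels in females than in males, beside 48.8% of all genes. In WT mice 8 of the 10 were higher in females, beside 46.1% of all genes. Tsc22d3 and Plin4 rose past the threshold in KO mice, 2 of 10 beside 5.93% of all genes. The paper had named Plin4 for a large sex effect in KO mice. Because the 10 genes were chosen with earlier results of these data known, these counts are no independent result. The genes' median log2 fold change was 0.31, where the median gene stood at -0.004. Tsc22d3 was 1.30-fold higher (log2 fold change 0.38 ± 0.09, FDR = 0.0095) and Plin4 3.05-fold (1.61 ± 0.47, FDR = 0.0303). Of the rest, Sult1a1 (0.50 ± 0.17, FDR = 0.0681), Cdkn1a (0.32 ± 0.12, FDR = 0.104), Mt1 (0.28 ± 0.11, FDR = 0.104), Sgk1 (0.31 ± 0.14, FDR = 0.166), Depp1 (0.70 ± 0.36, FDR = 0.256), Mt2 (0.23 ± 0.13, FDR = 0.306), Fkbp5 (0.10 ± 0.06, FDR = 0.344) and Zbtb16 (0.02 ± 0.07, FDR = 0.919) did not pass. Neither call held with equal library weights, in edgeR or DESeq2, without the filter, with age as a covariate or in mice of 14 weeks or more. Leaving out KO male 7 ended both (Tsc22d3 FDR = 0.0562, Plin4 FDR = 0.228), and Plin4's call also ended without KO males 2 or 5 or KO proestrus mice 1 or 2. Sult1a1 passed without any 1 of KO proestrus mouse 3, KO males 3 or 6 and KO diestrus mouse 6, and Mt1 without KO male 3 (0.35). Those fits gave 992 to 1336 calls over all genes, against 959 with all mice.

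The female-male difference itself was compared between genotypes, KO minus WT. No gene passed in the limma fit (0 of 10, beside 0% of all genes), nor in edgeR or DESeq2. Fkbp5 alone had an unadjusted p under 0.05 (0.23 ± 0.11, unadjusted p = 0.0387, FDR = 1.00). Depp1 stood at -1.62 ± 0.83 (unadjusted p = 0.057) and Plin4 at 1.10 ± 0.75, with a 95% interval of -0.40 to 2.59.

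Over all groups, Sgk1 was higher in KO than in WT mice, and it was the single one of the 10 to pass, beside 3.4% of all genes. The log2 fold change was 0.41 ± 0.09 (95% interval 0.23 to 0.59, 1.33-fold, FDR = 0.00387). It kept the call in all 55 fits that each left out 1 mouse (0.37 to 0.45), with age as a covariate (0.41) and among mice whose parents came from the mutant line (0.50, FDR = 0.0204). The call was lost with equal weights (0.27, FDR = 0.269), in edgeR (0.29, FDR = 0.21), in DESeq2 (0.30, FDR = 0.216), without the filter (0.38, FDR = 0.0525) and in mice of 14 weeks or more (0.32, FDR = 0.157). Tsc22d3, which moved with Sgk1 between mice, stood at 0.17 ± 0.06 (FDR = 0.111), and passed without any 1 of WT diestrus mice 3, 4 or 5 (0.21 without mouse 5). Those fits gave 819, 771 and 704 calls over all genes, against 549 with all mice. In the same comparison 2 of 7 dentate granule cell markers were lower in KO, C1ql2 (-0.59, FDR = 0.000151) and Stxbp6 (-0.20, FDR = 0.0155), and their part in the Sgk1 result was not tested. Among mice of mutant-line parents Mt1 stood at -0.34 and Mt2 at -0.35. The fit of all mice gave -0.09 (FDR = 0.58) and -0.04 (FDR = 0.887). That subset kept 1 WT mouse each in metestrus, proestrus and estrus. In it, WT proestrus minus WT males was 1.22 for Mt1 and 1.51 for Mt2, against -0.06 and -0.11 with all mice. WT proestrus mouse 5, of the lowest quality weight (0.194), stood above its group for both genes.

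**Figure D2:**
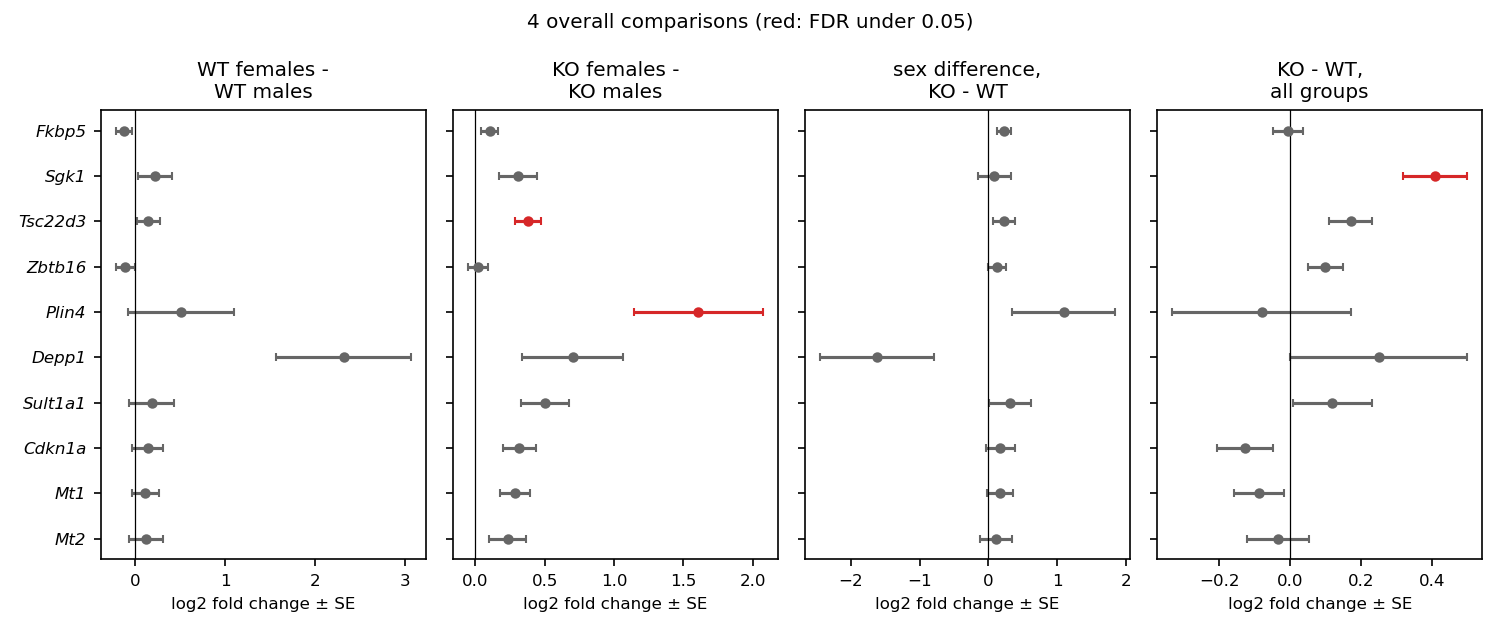
Log2 fold change ± SE of the 10 genes in the 4 overall comparisons (1 panel each, KO or female minus WT or male), with FDR under 0.05 in red. Tsc22d3 (0.38) and Plin4 (1.61) are red for KO females, Sgk1 (0.41) is red for KO against WT, and no gene is red in the other 2 panels.

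Within a stage or in males, KO and WT were compared in 5 tests per gene. None of the 10 genes passed at any stage or in males in the limma fit (beside 0.105% of all genes over the 5 comparisons), nor in edgeR or DESeq2, and 8 of the 50 values had an unadjusted p under 0.05. The smallest unadjusted p were those of Fkbp5 in proestrus (0.33 ± 0.10, unadjusted p = 0.00153, FDR = 0.121) and Sgk1 in metestrus (0.65 ± 0.20, unadjusted p = 0.00195, FDR = 0.291). Proestrus held 4 of the 8, all higher in KO: beside Fkbp5 these were Tsc22d3 (0.33), Zbtb16 (0.27) and Mt2 (0.44). Sgk1 in estrus (0.38), Tsc22d3 in diestrus (0.28) and Mt1 in estrus (-0.29) made up the rest. Single WT mice moved these counts. In diestrus Tsc22d3 passed without any 1 of WT diestrus mice 3, 4 or 5 (0.46, 0.46 and 0.48) and Sult1a1 without mouse 3 or 4 (0.75 and 0.81). Calls over all genes went from 0 to 1081, 932 and 768 without mice 3, 4 and 5. These 3 mice, at 12.29, 12.29 and 11.71 weeks, were the WT diestrus mice under 14 weeks. In proestrus Fkbp5 passed without WT proestrus mouse 4 (0.41, FDR = 0.0327), as calls over all genes went from 51 to 231.

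Each stage was then set against males of the same genotype. The 4 KO comparisons share the 7 KO males, and the 4 WT comparisons the 5 WT males. In KO diestrus 4 of 10 genes passed, all higher than in KO males, beside 28.7% of all genes: Tsc22d3 (0.62 ± 0.11, FDR = 6.03e-05), Sult1a1 (0.86 ± 0.20, FDR = 0.0012), Mt1 (0.49 ± 0.14, FDR = 0.00507) and Plin4 (1.59 ± 0.54, FDR = 0.0211). Mt1 was at 703 to 1070.1 CPM (median 946) in KO diestrus and at 548 to 1181 CPM (median 652) in KO males, so the ranges overlapped. Sgk1 (0.40 ± 0.17, FDR = 0.0714), Cdkn1a (0.30 ± 0.15, FDR = 0.12) and Mt2 (0.32 ± 0.16, FDR = 0.129) missed the threshold, and Fkbp5, the cochaperone, stood at 0.02 ± 0.08 (FDR = 0.893). Of the other KO stages, proestrus gave 1 call, Plin4 (2.24 ± 0.55, FDR = 0.0496), which ended without KO proestrus mice 1 or 2 or KO males 2, 5 or 7 (1.22 without KO proestrus mouse 2). Without KO proestrus mouse 3, Fkbp5 (0.36) and Tsc22d3 (0.53) passed as well, as calls over all genes went from 51 to 151. Metestrus and estrus gave none, and these 3 stages together stood beside 2.78% of all genes.

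The KO diestrus result for Tsc22d3 was the one least dependent on the method. It kept its call in all 13 fits that left out 1 mouse, with equal weights (0.56, FDR = 0.0139), in edgeR (0.58, FDR = 0.014), in DESeq2 (0.59, FDR = 0.00404) and with age as a covariate (0.52, FDR = 0.0185). Only 2 of the 6 KO diestrus mice were 14 weeks or older, and between these and the KO males the value was 0.13 (FDR = 0.905). Sult1a1 and Mt1 also kept their calls in each of the 13 fits, but not with equal weights (0.58 and 0.28), in edgeR (0.62 and 0.25), in DESeq2 (0.63 and 0.27), with age as a covariate (0.55 and 0.36) or in mice of 14 weeks or more (0.077 and 0.049). Sgk1 passed without any 1 of KO males 1 or 2 and KO diestrus mice 2 or 6, whereas Plin4 lost its call without KO males 5 or 7 or KO diestrus mouse 5 (1.28 without KO male 7). Where Sgk1 passed, calls over all genes ran from 3417 to 5285, against 4635 with all mice. Cell type markers moved in the same comparison. All but 2 of the 15 mature oligodendrocyte genes were lower (13 called), with summed levels of 3488 to 5806 CPM in KO diestrus and 5699 to 6920 CPM in KO males, and 6 of 10 astrocyte genes were higher (3168 to 5008 against 2762 to 3247 CPM). Of 9 microglial genes 6 were lower and 1 higher, of 3 tested pituitary genes 2 were higher, and of 5 blood and 9 choroid plexus genes none was called in the limma fit. Neuronal markers were called too. The CA1 genes Wfs1 (-0.79), Man1a (-0.54) and Fibcd1 (-0.49) were lower. Of the dentate genes C1ql2 was lower (-1.26) and Lct higher (0.25). Of the pan-neuronal genes Camk2a (0.67) and Map2 (0.40) were higher and Syt1 lower (-0.47). The part of all these markers in the result was not tested.

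In WT females none of the 10 genes passed against WT males at any of the 4 stages in the limma fit, beside 0.0448% of all genes over the 4 comparisons, and edgeR and DESeq2 called none either. Unadjusted p fell under 0.05 for 1, 1, 2 and 1 genes in metestrus, diestrus, proestrus and estrus. Depp1 was one of them each time, with log2 fold changes of 1.95, 2.71, 2.60 and 2.01 and unadjusted p of 0.0199, 0.00147, 0.00214 and 0.0131, and all 4 rest on the same 5 WT males. The WT diestrus result changed when single libraries were left out. WT diestrus mice 1, 2 and 6 were 16.43, 17 and 17.14 weeks old, and mice 3, 4 and 5 were 12.29, 12.29 and 11.71 weeks old. The part of age in these changes was not tested. Depp1 passed in 6 of the 11 fits that left out 1 WT diestrus mouse or WT male, without WT diestrus mouse 1, 2 or 6 or WT male 1, 2 or 3 (1.96 to 2.83). Calls over all genes ran from 2195 to 3333 in those 6 fits, against 11 with all mice. In those fits Tsc22d3 passed without WT male 1, Mt1 without WT diestrus mouse 2 and Sult1a1 without WT diestrus mouse 6. Without the 5 libraries of low quality weight, which include WT diestrus mouse 1 and WT male 1, 6 genes passed, all higher in WT diestrus: Tsc22d3 (0.52, FDR = 0.00676), Sult1a1 (0.96), Mt1 (0.61), Mt2 (0.50), Sgk1 (0.60) and Depp1 (2.61), as calls over all genes went from 11 to 6268. The same 6 passed among mice of mutant-line parents (6899 calls). That Tsc22d3, Sult1a1 and Mt1 passed in KO and not in WT diestrus with all mice does not show that the genotypes differ, which was not tested for these stage differences. With all mice Tsc22d3 in WT diestrus stood at 0.33 ± 0.16 (FDR = 0.31) and Sult1a1 at 0.53 ± 0.30 (FDR = 0.354), with a range of 5.96 to 18.0 CPM that spanned that of the WT males (6.71 to 13.6 CPM).

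**Figure D3:**
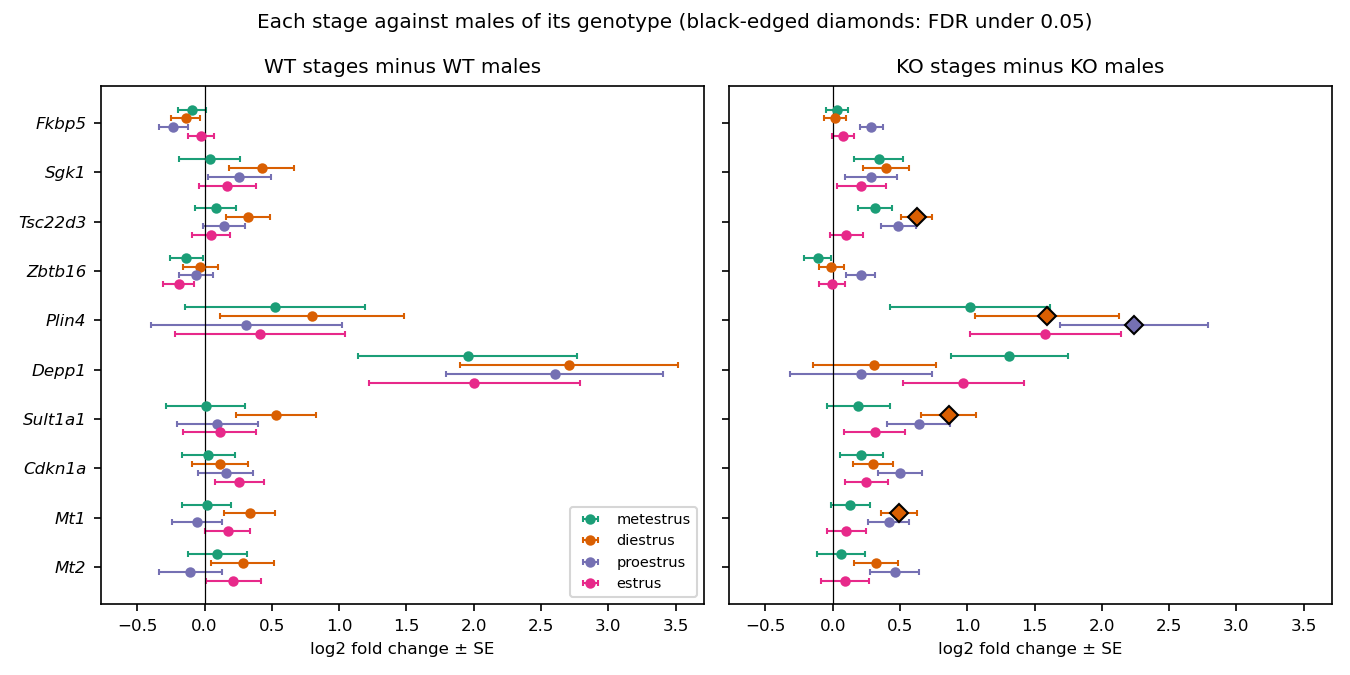
Log2 fold change ± SE of each stage against males of its genotype for the 10 genes, WT on the left and KO on the right, with stages by colour and black-edged diamonds where FDR was under 0.05. With all 55 mice the 5 diamonds are in KO mice, 4 at diestrus and 1 (Plin4) at proestrus, whereas without the 5 low-weight libraries 6 WT diestrus points passed, and the 4 WT points of Depp1 (1.95 to 2.71) carry the longest error bars.

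Between stages of KO females, diestrus entered every call made with all mice. Against KO estrus 3 genes were higher in KO diestrus, beside 30.7% of all genes: Tsc22d3 (0.52 ± 0.13, FDR = 0.00175), Mt1 (0.39 ± 0.15, FDR = 0.0407) and Sult1a1 (0.55 ± 0.22, FDR = 0.0485). KO estrus mice were at 105 to 180 CPM for Tsc22d3 (median 139), so the ranges overlapped. Cell type markers differed between these groups too: summed oligodendrocyte levels had medians of 4156 CPM in KO diestrus and 5842 CPM in KO estrus, and astrocyte levels of 4532 and 3283 CPM. Their part in the result was not tested. Sult1a1 was lower in KO metestrus than in KO diestrus (-0.67 ± 0.22, FDR = 0.0425, 1 gene beside 10.4%), and Fkbp5 lower in KO diestrus than in KO proestrus (-0.27 ± 0.09, FDR = 0.0155, 1 gene beside 34.3%). In the remaining 3 KO pairs none passed (beside 1.62%), with 5, 0 and 2 genes under an unadjusted p of 0.05 for metestrus against proestrus, metestrus against estrus and proestrus against estrus. In the 6 WT pairs none passed either (beside 7.77%), with at most 1 gene per pair under that p. Neither edgeR nor DESeq2 called any of the 10 in these 12 pairs. The 3 WT pairs with diestrus changed when any 1 of WT diestrus mice 1, 2 or 6, the 3 of 14 weeks or more, was left out. Each time 7 calls were gained: Sult1a1 and Mt1 higher in diestrus than in metestrus, Sult1a1, Mt1 and Mt2 higher than in proestrus, and Tsc22d3 and Sult1a1 higher than in estrus (0.38 and 0.75 without mouse 6, 0.28 and 0.42 with all mice). Calls over all genes rose as well, without mouse 6 from 1170 to 4963, from 1562 to 5215 and from 3576 to 6646. Without the 5 low-weight libraries the same 7 passed, with Mt1 higher than in estrus as well, and calls over all genes went from 1170 to 4976, from 1562 to 4987 and from 3576 to 6645. Fkbp5 was lower in WT proestrus than in WT estrus without WT proestrus mouse 4 (-0.28) or WT estrus mouse 7 (-0.26). Those fits gave 1588 and 1328 calls over all genes, against 1102 with all mice.

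Each of these KO stage calls was lost under some of the alternatives, and the cause was not tested. Mice of 14 weeks or more left 2 of 6 KO diestrus and 1 of 4 KO proestrus mice, so age and the loss of mice are not separated. Tsc22d3 in KO diestrus against estrus was called in 12 of 12 fits that left out 1 mouse (0.44 to 0.61) and with age as a covariate (0.45), but not with equal weights (0.45, FDR = 0.0941), in edgeR (0.46, FDR = 0.119) or in DESeq2 (0.48, FDR = 0.0758), and it was 0.017 in mice of 14 weeks or more. Mt1 in that comparison was 0.20 with equal weights and 0.0064 in mice of 14 weeks or more. Sult1a1 in KO metestrus against diestrus was called in 3 of 11, Sult1a1 in diestrus against estrus in 5 of 12, Mt1 in 6 of 12 and Fkbp5 in 6 of 10. The Fkbp5 value was -0.15 without KO proestrus mouse 1.

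Whether the genes move together was asked from mouse to mouse, after each group's mean was removed from the log2 CPM, over 55 mice and 45 pairs of genes. Correlations were positive in 39 pairs, with a median Pearson's r of 0.24, while the median over all pairs of tested genes was -0.002. Positive pairs numbered 33 in WT, 38 in KO, 40 in females and 26 in males. They numbered 28 in mice under 14 weeks and 35 in older mice. Of the 45 pairs 17 were above 0.3 (37.8%, beside 17.8% of all gene pairs) and 6 above 0.5 (13.3%, beside 6.42%). The 6 were not spread evenly but fell into the pair Sgk1 and Tsc22d3, and a set that joined Mt1, Mt2, Cdkn1a, Sult1a1 and Plin4. Depp1 and Zbtb16 stood apart, with no pair at 0.4 or more.

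**Figure D4:**
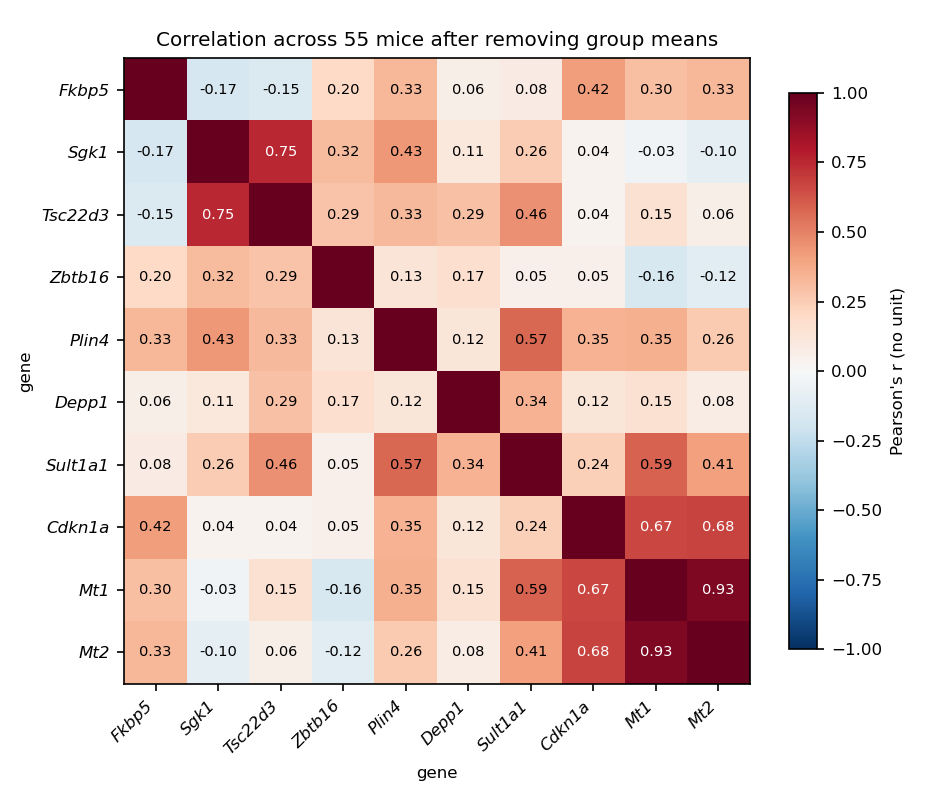
Pearson's r between the 10 genes (rows and columns) over 55 mice after group means were removed, from -1 (blue) to 1 (red). The darkest cells off the diagonal are Mt1 with Mt2 (0.93) and Sgk1 with Tsc22d3 (0.75), and Fkbp5 is slightly negative with both Sgk1 and Tsc22d3.

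Sgk1 and Tsc22d3, the kinase and the leucine zipper protein, correlated at r = 0.75 (Spearman's rho = 0.73, permutation p = 1e-05 within groups, the smallest that 100000 permutations can give). Without the 2 mice farthest from the median of Sgk1, r was 0.72. The value was 0.68 in WT, 0.81 in KO, 0.70 in females and 0.90 in males. Of all other genes tested, Tsc22d3 had the highest r with Sgk1, and Sgk1 the second highest with Tsc22d3. When Sgk1 was added to the limma model, 8.44% of all genes moved with it, among them Tsc22d3 (slope 0.50 ± 0.07, FDR = 9.26e-06) and Plin4 (1.28 ± 0.35, FDR = 0.0188). Tsc22d3 as the covariate gave 7.47% and Sgk1 as its single member of the set (1.13 ± 0.14, FDR = 3.06e-06). Of 10 astrocyte genes 3 rose with Tsc22d3 and 1 with Sgk1.

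Mt1 and Mt2 correlated at r = 0.93 (rho = 0.91, permutation p = 1e-05), each the closest of all genes to the other. How reads of these near copies were divided between them can bear on this value, and its part was not tested. With the summed estimated transcript counts r within groups was 0.956 for Mt1 and Mt2. In those estimates Cdkn1a stood at 0.623 with Mt1 and 0.659 with Mt2. Cdkn1a correlated with Mt2 (0.68, rho = 0.65, permutation p = 1e-05) and Mt1 (0.67, rho = 0.61, permutation p = 2e-05), Mt2 being its closest gene and Mt1 its 3rd closest. The reverse did not hold, since Cdkn1a ranked 642nd for Mt2 and 1074th for Mt1. Mice at the edge carried part of these correlations: r was 0.64 and 0.60 without the 2 farthest mice, and 0.58 and 0.55 without the 5 libraries of low quality weight. With Mt1 in the model 31.3% of all genes moved with it, and 4 of the set, namely Mt2 (1.09 ± 0.08, FDR = 7.78e-14), Sult1a1 (0.95 ± 0.18), Cdkn1a (0.64 ± 0.13) and Plin4 (1.35 ± 0.46). Mt2 gave 20.3% and 3 (Mt1, Cdkn1a and Sult1a1), and Cdkn1a 0.00619% and 1, Mt1 (0.57 ± 0.11, FDR = 0.0493). All 5 hemoglobin and red cell genes rose and 10 of 15 mature oligodendrocyte genes fell with Mt1. Their part in the correlations was not tested.

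Sult1a1, the sulfotransferase, joined Mt1 (r = 0.59, rho = 0.61, permutation p = 1e-05) and Plin4 (0.57, rho = 0.54, permutation p = 5e-05). Without the 2 farthest mice the values were 0.55 and 0.54. Among mice under 14 weeks they were 0.22 and 0.14. Sult1a1 was the closest of all genes to Plin4, while Plin4 ranked 161st for Sult1a1. Mt1 ranked 104th for Sult1a1, and Sult1a1 ranked 1555th for Mt1. With Sult1a1 in the model 4.53% of genes moved with it, including Plin4 (1.34 ± 0.25, FDR = 0.00196) and Mt1 (0.40 ± 0.08, FDR = 0.00241), and 8 of 15 mature oligodendrocyte genes fell with it. Plin4 gave 0.0495% and 1 of the set, Sult1a1 (0.27 ± 0.05, FDR = 0.023).

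Fkbp5 had no clear correlation with Sgk1 or Tsc22d3 over all 55 mice. Its r was -0.17 with Sgk1 (permutation p = 0.279) and -0.15 with Tsc22d3 (permutation p = 0.334). In WT mice these were -0.46 and -0.39, and in KO mice 0.05 and 0.09. With Zbtb16, Mt1 and Mt2 its r was 0.20, 0.30 and 0.33 (permutation p = 0.164, 0.0485 and 0.0307). For Mt1 and Mt2 the values were 0.50 and 0.54 in WT mice and 0.03 and 0.06 in KO mice. With Fkbp5 in the model 11.9% of all genes moved with it, and 2 of the set: Plin4 (2.90 ± 0.81, FDR = 0.0151), which lost its call without any 1 of KO proestrus mouse 3 (1.92) and WT estrus mice 4 and 7, and Cdkn1a (0.88 ± 0.26, FDR = 0.0203, r = 0.42), which lost it without KO male 4 or WT estrus mouse 4. Of 5 blood genes 4 rose with Fkbp5, and 4 of 15 oligodendrocyte and 2 of 9 microglial genes fell with it. Their part in these values was not tested. The 5 genes with the smallest FDR were Pnma1 (r = -0.72, rho = -0.70), Stxbp3 (-0.73, -0.73), Dexi (0.73, 0.68), Csnk1e (0.69, 0.66) and Abhd17c (0.68, 0.65), each over 55 mice. Zbtb16 moved with 5.79% of all genes and none of the set at FDR under 0.05 (3 with unadjusted p under 0.05), and Depp1 with 0% and none (1075 genes with unadjusted p under 0.05, none of the set).

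**Figure D5:**
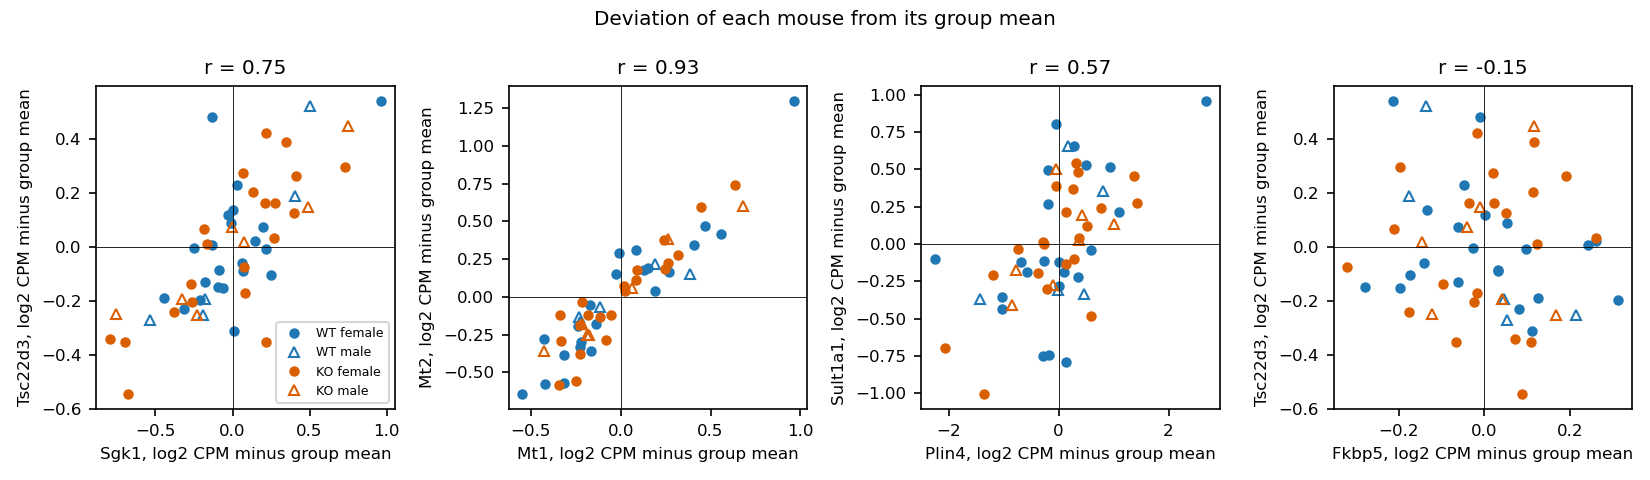
Deviation of each of 55 mice from its group mean (log2 CPM) for 4 pairs of genes, WT in blue and KO in orange, females as discs and males as open triangles. The first 3 panels slope upward (r = 0.75, 0.93 and 0.57) and the last, Fkbp5 against Tsc22d3, has no visible slope (r = -0.15).

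Other genes of these pathways are read against the shares of all genes called: 55.3% across groups, 28.7% in KO diestrus against KO males, 5.93% in KO females against KO males and 3.4% in KO against WT. None was called in WT females against WT males in the limma fit. Of 10 tested genes for the receptors and their chaperones and cofactors, 7 differed across groups, and KO diestrus against KO males gave 2 higher (Ncoa1, a coactivator, 0.20, and Hsp90ab1, 0.16) and 1 lower (Fkbp4, a cochaperone that promotes receptor transport, -0.55, FDR = 0.00195). Ncoa1 was also higher in KO females than KO males (0.19), and Ptges3, the p23 cochaperone, was lower in KO than WT over all groups (-0.18, FDR = 4.56e-05). Of 18 other glucocorticoid responsive genes 15 differed across groups, 3 were higher in KO females than KO males (Hif3a 0.90, Fam107a 0.46 and Mfsd2a 0.31), and KO diestrus against KO males split into 4 higher, among them Fam107a (0.99) and Gpd1 (0.33), and 5 lower, among them Ddit4 (-0.55). From mouse to mouse 4 of these 18 rose with Tsc22d3, 2 with Sgk1, 2 with Fkbp5 and 5 with Zbtb16, where 7.47%, 8.44%, 11.9% and 5.79% of all genes did so in either direction.

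Of the 4 FoxO factors 3 differed across groups, and Foxo3 was higher in KO females (0.31, FDR = 0.0291) and in KO diestrus (0.34, FDR = 0.0193) than in KO males. Of 18 other FoxO responsive genes 10 differed across groups, Pik3ip1, an inhibitor of PI3 kinase, was lower in KO females than KO males (-0.44, FDR = 0.0102), and Fbxo32, a ubiquitin ligase, was lower in KO than WT (-0.22, FDR = 0.00908). KO diestrus against KO males gave 2 higher and 5 lower. Of 11 tested p53 responsive genes 4 differed across groups and 2 were lower in KO diestrus, and of 8 other metal response genes 3 differed, with 1 higher and 2 lower in KO diestrus. Neither list gave a call in KO females against KO males.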

How the data were processed

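Dorsal hippocampal lysates of 55 mice were reverse transcribed from poly(A) RNA and sequenced, 1 library per mouse. The authors aligned reads to Ensembl release 101 with STAR 2.7.9a and deposited raw gene counts of uniquely aligned reads from featureCounts 2.0.3. The authors also deposited Salmon 1.5.2 estimated counts per transcript and log2 CPM of their own fit (tool versions as in the submitters' processing notes). Tables of CPM and 1 column without a matching sample were not used. For Fkbp5, Sgk1 and Tsc22d3 the transcript estimates summed to 0.0045, 0.0476 and 0.197 of the gene counts, so no transcript shares are given.

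From the gene counts, those over 1 CPM in 10 or more libraries entered the tests, and 5 ribosomal RNA genes did not (16168 genes, 55774 lines holding 287 repeats). TMM factors (edgeR 4.0.16), voom with sample quality weights, a mean per group, and contrasts were fitted in limma 3.58.1 (R 4.3.3), with the FDR over all genes and a threshold of 0.05. Log2 CPM used a prior count of 0.5 and matched the authors' values for 16164 genes within 4.97e-14. Fitted log2 fold changes are weighted and can differ from differences of plain means. Female means weight the 4 stages equally. Co-movement was tested by adding a gene's log2 CPM to the model, and pairs by 100000 two-sided permutations within groups. Scripts were tested on simulated data. P-values measure the spread between mice, and the lowest counts set the precision for Depp1 and Plin4.

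Alternatives were equal weights, DESeq2's size factors (RLE), no filter, age as a covariate, mice of 14 weeks or more, mice of mutant-line parents, edgeR quasi-likelihood, DESeq2 1.42.0 and leaving out each mouse. Leaving out the 5 libraries of quality weight under 0.4, and mutant-line parents for comparisons within a genotype, were added after seeing the data. All 10 genes were tested in each comparison, but several comparisons name only part of them. Of other lists, where named, counts or at most 3 genes of smallest FDR are given, and of genes like Fkbp5 the 5 of smallest FDR. The genes and lists were chosen with earlier results of these data known. Replicate numbers only name mice.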

Additional observations from a re-analysis of the deposited data

Results flagged for a closer look

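Within each group the highest or lowest mouse was compared with the rest, on the log2 CPM scale, and 8 of 100 combinations of gene and group had 1 mouse far from the others, where chance gives about 1 in 20. WT proestrus mouse 2 stood above its group for Sgk1 (8.46, others 7.05 to 7.43) and Tsc22d3 (7.73, others 6.99 to 7.19). WT proestrus mouse 5, the library with the lowest quality weight (0.194), stood above its group for Mt1 (10.77, others 9.39 to 9.67) and Mt2 (5.65, others 3.77 to 4.17). KO estrus mouse 1, also among the 5 libraries of low weight (0.392), stood above its group for Mt1 (10.23, others 9.27 to 9.61), Mt2 (5.03, others 4.00 to 4.36) and Cdkn1a (4.59, others 3.30 to 3.59). Cdkn1a was also high in WT metestrus mouse 4 (3.71, others 3.52 to 3.54).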

How the results depend on the processing

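With all 55 mice, 7 genes were called across groups, 2 in KO females against males, 1 in KO against WT, 5 values in stages against males, 5 between stages and 2 with Fkbp5. In that order, equal weights gave 0, 0, 0, 1, 0 and 1, no filter 2, 0, 0, 2, 1 and 0, edgeR 0, 0, 0, 1, 0 and 1, and DESeq2 1, 0, 0, 1, 0 and 2. Age as a covariate gave 3, 0, 1, 1, 2 and 2, mice of 14 weeks or more 1, 0, 0, 0, 0 and 0, and leaving out the 5 libraries of low weight 9, 4, 1, 11, 12 and 2. With RLE factors the counts were 6, 2, 1, 4, 5 and 2. Mice of mutant-line parents gave 9, 3, 3, 16, 7 and 0, and 2 (where the fit of all mice gave 0) in KO against WT within stages. Co-movement with Fkbp5 gave 0 in WT, 0 in KO, 1 in females and 0 in males alone. WT females against males and the difference of the sex differences stayed at 0 under every setting run. Mice of 14 weeks or more left 1 KO proestrus mouse, and mutant-line parents left 1 WT mouse in metestrus, proestrus and estrus each, whose spread is then taken from the other groups. Leaving out 1 mouse gave 4 to 8 genes across groups (4 without KO male 7), 0 to 4 in KO females against males (0 without KO male 7, 4 without KO male 3), 1 to 2 in KO against WT (2 without WT diestrus mouse 3, 4 or 5), 3 to 8 in stages against males (3 without KO male 5 or 7 or KO diestrus mouse 5, 8 without KO proestrus mouse 3), 1 to 12 between stages (1 without KO diestrus mouse 2 or 5, 12 without WT diestrus mouse 1, 2 or 6, the 7 gained all in WT diestrus), 0 to 2 in KO against WT within stages (2 without WT diestrus mouse 3 or 4) and 0 to 2 with Fkbp5 (0 without WT estrus mouse 4). Most calls gained without the low-weight libraries (14 of them) were in WT diestrus. Over all genes, WT diestrus against WT males gave 11 calls, but 6268 without those libraries and 6899 for mutant-line parents. KO females against males gave 959 calls, but 93 with equal weights, 47 in edgeR, 168 in DESeq2 and 23 with age, and KO diestrus against KO males 4635, but 1057, 813, 1235 and 1025. KO against WT gave 549, but 150 with equal weights, 153 in edgeR, 187 in DESeq2 and 2398 for mutant-line parents. Of the 13 calls in the 29 comparisons none held under all alternatives, and the cause of each loss was not tested. Co-movement with genes other than Fkbp5 was not refitted under the alternatives. No paired analysis was possible because replicate numbers only name mice in accession order.

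Of the values per gene, 510 kept direction and call, 89 lost the call, 7 gained it and 38 changed direction, most of them near 0. In KO females against males Zbtb16 turned to -0.0047 (equal weights), -0.018 (no filter), -0.030 (14 weeks or more) and, leaving out 1 mouse, ran from -0.026 (without KO male 3) to 0.062. In the difference of the sex differences Sgk1 turned to -0.16 (14 weeks or more), -0.098 (low-weight libraries out) and -0.038 (without WT male 2), Sult1a1 to -8.77e-05 (14 weeks or more) and -0.066, Cdkn1a to -0.046, Mt1 to -0.27 and Mt2 to -0.37 (mutant-line parents), Mt1 to -0.021 and -0.020 and Mt2 to -0.131 and -0.130 (edgeR and DESeq2), and Mt2 to -0.051 (equal weights). In KO against WT Fkbp5 turned to 0.0053 (low-weight libraries out) and, leaving out 1 mouse, ran from -0.029 to 0.011 (without WT metestrus mouse 1), Plin4 to 0.23 (mutant-line parents) and 0.028 (without KO proestrus mouse 3), Depp1 to -0.071 and Sult1a1 to -0.032 (mutant-line parents), Sult1a1 also to -0.0034 (equal weights), -0.034 (edgeR) and -0.035 (DESeq2), and Mt2 ran from -0.076 to 0.017 (without WT diestrus mouse 4). In mice of 14 weeks or more 4 called values changed sign: Plin4 in KO proestrus against males (-0.50), Sult1a1 in KO metestrus against diestrus (0.18), Fkbp5 in KO diestrus against proestrus (0.13) and Sult1a1 in KO diestrus against estrus (-0.27). Slopes on Fkbp5 turned for Sgk1 (0.16 in KO), Tsc22d3 (0.083 with low-weight libraries out, 0.31 in KO, 0.10 in females, and -0.13 to 0.019 leaving out 1 mouse), Depp1 (-1.12 in WT) and Sult1a1 (-0.25 in males).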
